A study of Mus musculus with 8 samples.

Results

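Aquaporins are membrane channels that carry water, and in some family members glycerol, across cell membranes. Described here are the 5 aquaporin genes Aqp1, Aqp3, Aqp4, Aqp5 and Aqp11, out of 21765 gene symbols in a table of RNA from polysomes of the mouse main olfactory epithelium. They were picked by symbol, and Aqp3 was chosen by its measured difference between late and early polysomes, so that every late-against-early value of the 5 genes is given as a description and none is tested. All 5 passed the filter on low values, a mean of at least 1 TPM (a transcript abundance that is normalised for length and depth), which 16097 genes passed.

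Polysomes are mRNAs loaded with ribosomes, and a sucrose gradient sorts them by load. Tissue was treated with cycloheximide (100 µg/mL), which holds ribosomes in place, and about 42 fractions of 350 µL were taken from each gradient. From each of fractions 27 to 34 (early, lighter polysomes) or 35 to 42 (late, heavier polysomes) 50 µL was pooled for sequencing. Wild-type (WT) mice were Mex3a flox/flox or Mex3a flox/+ with no Cre listed, and conditional knockout (cKO) mice were Mex3a flox/flox with a Cre transgene, so that both genotypes carry a floxed allele of Mex3a, an RNA-binding protein gene. Each genotype had 2 lysates, and each lysate gave 1 early and 1 late library, 8 libraries in all. The labels give no age or sex and do not say how many animals made a lysate, so p-values measure the spread between these lysates. The series' design text speaks of sorted cells with tetO transgenes for HyperTRIBE-mCherry, alone or fused to Mex3a, under gg8-tTA with or without OMP-tTA; the labels of these polysome libraries list none of them.

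Aquaporins form tetramers in which each subunit has its own pore. A pair of short loops, each with an asparagine-proline-alanine (NPA) box, meet in the middle of the pore and let water pass in single file. Aqp1, Aqp4 and Aqp5 are water channels, Aqp3 is an aquaglyceroporin that also passes glycerol, and Aqp11 belongs to a divergent branch, found in intracellular membranes, whose first box departs from NPA. In nasal mucosa aquaporins are known for keeping the mucus that covers the sensory cilia hydrated: Aqp5 in the apical membrane of Bowman gland cells, Aqp3 and Aqp4 in epithelial cells, and Aqp1 in capillary endothelium and stroma. The library is made from whole tissue, in which fewer cells of a type and less RNA per cell cannot be told apart, and no unfractionated RNA was analysed here, so a level on polysomes is not a translation rate.

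The boxes are shown because they define the family and because Aqp11 departs from the other members in its first box. Coding sequences were read from GENCODE vM21 transcripts (GRCm38) and searched in frame, on the coding strand, for the NPA codons AACCCNGCN or AATCCNGCN. Each line gives the box in capitals with 9 coding bases on either side, 5′ to 3′. Aqp1 held boxes at codons 76 and 192, Aqp3 at codons 83 and 215, and Aqp5 at codons 69 and 185. Aqp11 held 1 NPA box, at codon 216, and its first box, at codon 99, ends in a TGC (cysteine) codon. A further asparagine-proline pair of Aqp11, at codon 157, is not shown.
Aqp1, first box: gctcacctcAACCCTGCGgtcacactg
Aqp1, second box: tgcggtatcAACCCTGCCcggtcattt
Aqp3, first box: gcccacttgAACCCCGCTgtgaccttc
Aqp3, second box: tatgccgtcAACCCTGCCcgtgacttt
Aqp5, first box: ggccacatcAATCCGGCCattactctg
Aqp5, second box: tgttccatgAACCCAGCCcgatctttc
Aqp11, first box: acagctagcAACCCGTGCggcgtgatg
Aqp11, second box: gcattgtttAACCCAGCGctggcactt
Of 22271 coding sequences, 0.691% held at least 2 of these NPA codon runs in frame and 7.22% at least 1. Aqp4 also held 2; its sequence is not shown.

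The genotype labels were checked on Mex3a itself. After scaling between libraries by median ratios, Mex3a stood at 97.9 and 117.8 TPM (early) and 88.1 and 89.2 TPM (late) in WT. The cKO libraries held 14.4 and 21.1 TPM (early) and 10.9 and 13.1 TPM (late), below every WT library. For replicate 2 of WT early, title and genotype label disagree: the label is that of the cKO. That library, at 117.8 TPM of Mex3a, was kept as WT by its title. Whole reads inferred from the steps between TPM values summed to 7776792 to 12771079 per library, lowest in cKO late replicate 2. The neuron marker Omp, which defines mature olfactory sensory neurons, had a mean of 4649 scaled TPM in early and 2601 in late libraries. Of 8 mature neuron markers, Omp among them, 5 were higher and 3 lower in late polysomes by limma, with a median of 0.34. Over all tested genes 34.3% were higher and 34.6% lower.

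Aqp3 (chromosome 4, 41092722 to 41098183, minus strand, GRCm38, 6 coding exons) was the most abundant aquaporin in late polysomes. Early libraries held 225.9 and 154.9 (WT) and 190.0 and 137.9 (cKO) scaled TPM of it. Late libraries held 530.8 and 584.1 (WT) and 597.1 and 733.7 (cKO). The lowest late library was thus well above the highest early library, and between 1003 and 4818 inferred reads lay behind each value. On the log2(scaled TPM + 1) scale used throughout, late minus early was 1.23 and 1.91 (WT lysates) and 1.65 and 2.40 (cKO lysates), on average 1.80 ± 0.49 (SD, n = 4 lysates), or 3.47-fold. By this mean Aqp3 ranked 2 among the 16097 genes.

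Aqp1 (chromosome 6, 55336432 to 55348555, plus strand, 4 coding exons), the water channel of capillary endothelium and red cells, moved the same way by less. Its early libraries held 151.6 and 119.1 (WT) and 153.8 and 122.7 (cKO) scaled TPM, its late ones 221.2 and 226.4 (WT) and 238.5 and 272.3 (cKO). The fractions differed by 0.54 and 0.92 (WT lysates) and 0.63 and 1.14 (cKO lysates), on average 0.81 ± 0.28 (SD, n = 4). Early and late libraries did not overlap, and 90.0% of tested genes had a smaller mean change.

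Aqp4 (chromosome 18, minus strand, 5 coding exons), the channel that the dystrophin complex anchors in membranes, stood close to Aqp1 in every library. Scaled TPM in early libraries was 142.8 and 124.1 (WT) and 146.9 and 113.6 (cKO), and in late ones 207.8 and 223.3 (WT) and 241.9 and 268.2 (cKO). Late exceeded early by 0.54 and 0.84 (WT lysates) and 0.72 and 1.23 (cKO lysates), on average 0.83 ± 0.29 (SD, n = 4). A noncoding gene, AC133525.2, overlaps Aqp4 on the opposite strand. The library kit keeps strand, but the sources used here do not say whether counting did, so reads of the partner could be included; no other member overlaps an annotated gene.

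Aqp5 (chromosome 15, 99590782 to 99594829, plus strand, 4 coding exons), the apical channel of secretory glands, was the most abundant member in early polysomes. Early libraries gave 265.7 and 226.7 (WT) and 259.7 and 237.4 (cKO) scaled TPM, late ones 250.6 and 290.6 (WT) and 351.1 and 380.5 (cKO). The WT fractions overlapped and the cKO fractions did not. Late minus early was -0.08 and 0.36 (WT lysates) and 0.43 and 0.68 (cKO lysates), on average 0.35 ± 0.32 (SD, n = 4). The mean was 0.58 with quantile normalization and 0.24 without cKO lysate 2.

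Aqp11 (chromosome 7, 97724006 to 97738289, minus strand, 3 coding exons), the intracellular member, was the least abundant and the only one of the 5 that was lower in late polysomes of all 4 lysates. Scaled TPM was 24.9 and 31.8 (WT) and 33.8 and 33.9 (cKO) in early, 18.3 and 18.1 (WT) and 21.1 and 19.7 (cKO) in late libraries. Late minus early was -0.43 and -0.78 (WT lysates) and -0.65 and -0.76 (cKO lysates), on average -0.65 ± 0.16 (SD, n = 4). Only 74 to 204 inferred reads lay behind each value, the fewest of the 5 members.

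**Figure D1:**
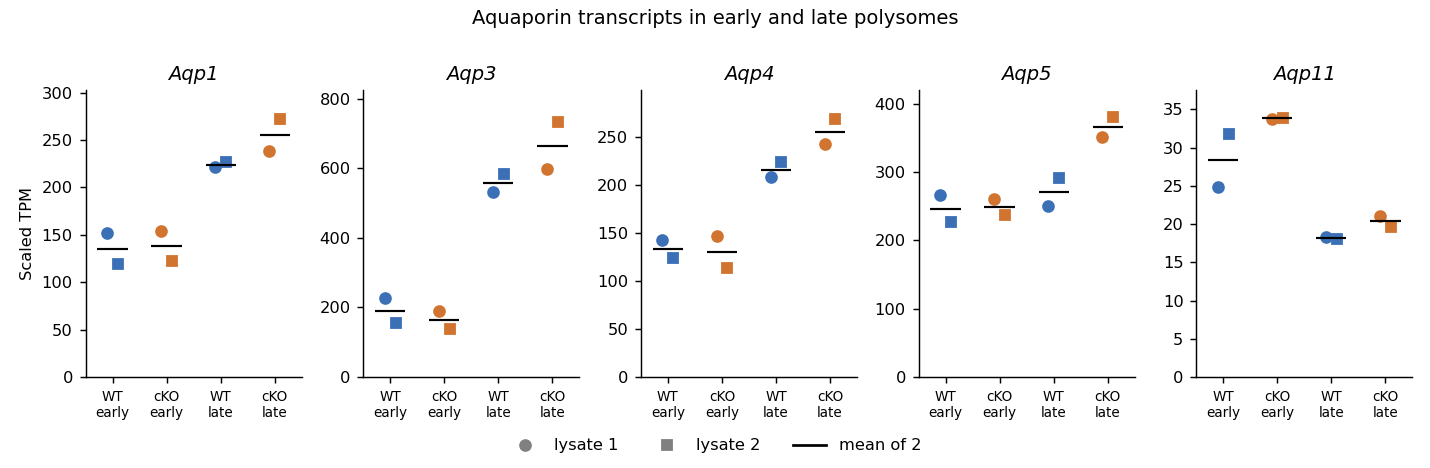
Scaled TPM (vertical axis, linear, from 0, with its own range for each gene) of the 5 aquaporins in WT (blue) and cKO (orange) early and late polysome libraries; circles are lysate 1, squares lysate 2 and bars the mean of 2. Aqp1, Aqp3 and Aqp4 are higher in every late library than in any early one, Aqp5 overlaps between WT fractions, and Aqp11 is lower in every late library.

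The order of the members therefore differed between the fractions. Since TPM is per length, levels can be set beside each other: in early libraries the means were 247.4 ± 18.4 scaled TPM for Aqp5, 177.2 ± 39.0 for Aqp3, 136.8 ± 18.4 for Aqp1, 131.9 ± 15.7 for Aqp4 and 31.1 ± 4.23 for Aqp11 (SD, n = 4). In late libraries they were 611.4 ± 86.4 for Aqp3, 318.2 ± 58.6 for Aqp5, 239.6 ± 23.0 for Aqp1, 235.3 ± 26.0 for Aqp4 and 19.3 ± 1.40 for Aqp11. Aqp1 and Aqp4 lay within each other's spread in both fractions, and the ranges of Aqp3 and Aqp1 overlapped in early libraries, as did those of Aqp5 and Aqp1 in late ones. Aqp3 made up 21.4% to 27.9% of the summed scaled TPM of the 5 genes in early libraries and 41.2% to 43.8% in late ones, while Aqp5 went from 32.8% to 36.8% down to 20.4% to 24.2%. Aqp1 kept to 16.3% to 19.6% in all libraries. The sum itself was 645.6 to 810.9 in early and 1229 to 1674 in late libraries. TPM is a share of each pool, so these sums do not compare amounts of aquaporin RNA between fractions. After scaling, the median late minus early over all tested genes was -0.0033 to 0.0009 in the lysates. Each late-minus-early value is therefore relative to the typical gene.

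Of the 5 members, 3 (Aqp1, Aqp3 and Aqp4) were higher in the late library of 4 of 4 lysates, as were 38.2% of all tested genes. Aqp11 was lower in 4 of 4 lysates, as were 37.8% of tested genes. Within lysates Aqp3 exceeded Aqp1 by 0.69 to 1.26 and Aqp4 by 0.69 to 1.17 in its log2 difference between fractions, and it exceeded Aqp11 by 1.66 to 3.16.

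The size of the difference varied with the lysate. In 4 of 5 members late minus early was larger in lysate 2 than in lysate 1 of both genotypes, which held for 34.1% of tested genes; Aqp11, the exception, was further below 0 in lysate 2 of both genotypes. The spread of late minus early over all tested genes was also wider in lysates 2, with an SD of 0.62 in WT 1, 0.78 in WT 2, 0.67 in cKO 1 and 0.90 in cKO 2. In units of that SD Aqp3 lay at 1.97, 2.44, 2.45 and 2.68 in the same lysates, and Aqp1 at 0.87, 1.18, 0.94 and 1.28. The part of the wider spread in the members' differences was not tested.

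**Figure D2:**
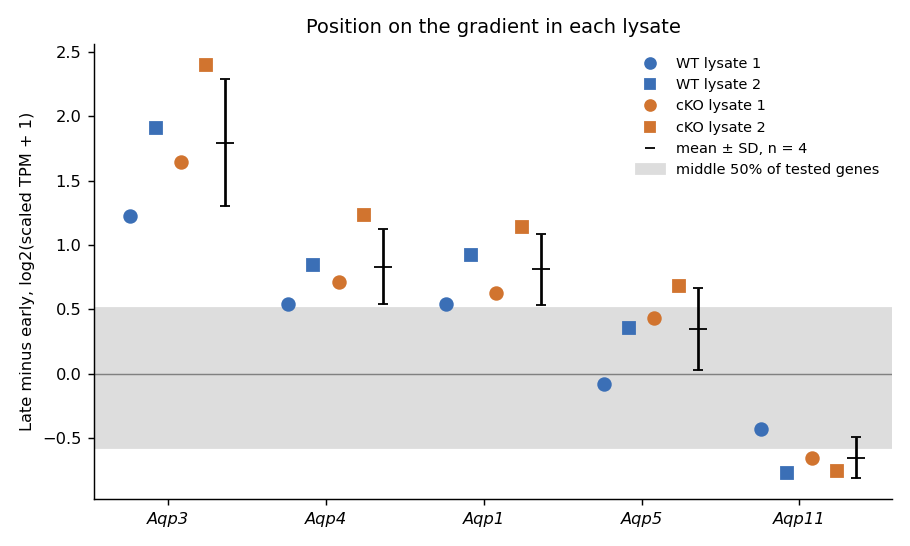
Late minus early, in log2(scaled TPM + 1), for each aquaporin (horizontal axis) in each of the 4 lysates, with the mean ± SD in black and the middle 50% of tested genes as a grey band (quartiles averaged over the lysates). All 4 Aqp3 points lie above 1.2, Aqp11 is below 0 throughout, and Aqp5 lies on either side of 0.

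Position on a gradient depends on how many ribosomes a coding sequence can hold, and aquaporins are short. The longest GENCODE coding sequences had 265 codons for Aqp5, 269 for Aqp1, 271 for Aqp11, 292 for Aqp3 and 323 for Aqp4, so that Aqp1, Aqp5 and Aqp11 were nearly equal in length. Each member was set beside the tested genes whose coding length was within 10% of its own. Around Aqp3 there were 1867 such genes with a median late minus early of -0.25 (quartiles -0.59 and 0.12), and 0 of them had a larger value than Aqp3. Around Aqp1 the median of 961 genes was -0.39, and 31 of them lay above it. Around Aqp4 the median of 2203 genes was -0.19, with 106 above it, and around Aqp5 the median of 948 was -0.42, with 124 above it. Aqp11 was 0.28 below the median of its 1016 neighbours in length, and 709 of them lay above it. So 4 members were on heavier polysomes than most genes of their length, and Aqp11, despite its like length, was not. These are descriptions, since the values are those of the contrast by which Aqp3 was chosen.

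**Figure D3:**
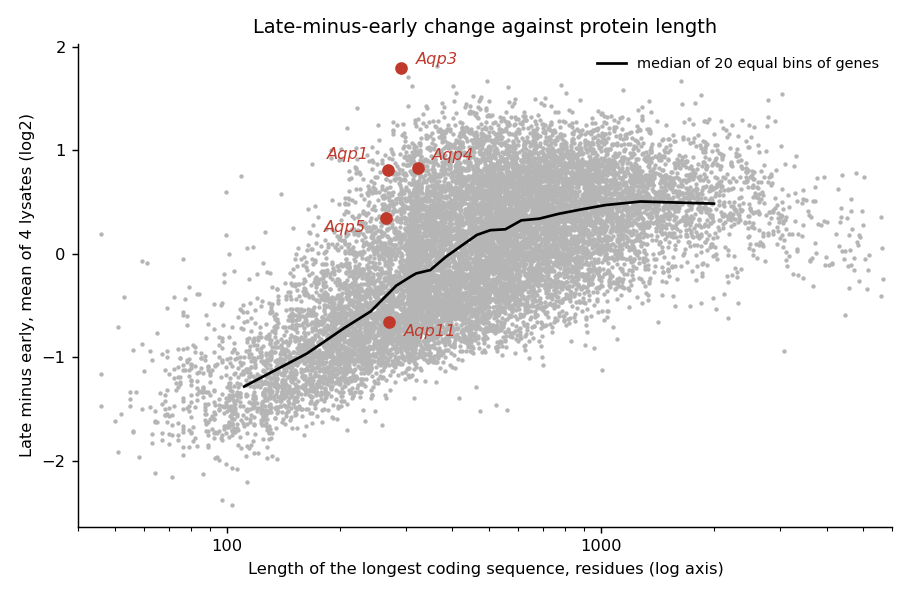
Mean late-minus-early change over 4 lysates (vertical axis, log2) against the length of the longest coding sequence in residues (horizontal log axis) for each tested gene with a GENCODE coding length (grey), the median of equal bins of genes (black) and the 5 aquaporins (red). Aqp3 lies above every gene of similar length, Aqp1, Aqp4 and Aqp5 above the binned median and Aqp11 below it.

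The genotype comparison asked whether aquaporin transcripts on polysomes change when Mex3a is lost, and none of the 5 passed. With limma on log2(scaled TPM + 1), adjusted over all 16097 genes, 0 of 5 members were called in early polysomes, where 0.0435% of genes were, and 0 of 5 in late polysomes, where 0.0124% were. On the mean of both fractions of each lysate 0 of 5 were called (0.00621% of genes), and 0 of 5 in the interaction of genotype and fraction (0.00621%). At an unadjusted p under 0.05 by limma there were 3 of the 20 tests, all of Aqp5, in late polysomes, on lysate means and in the interaction. All 3 use the same late libraries of Aqp5, so they are not independent results. The share of all genes under that p was 6.65% in early polysomes, 9.36% in late polysomes, 11.3% on lysate means and 2.85% in the interaction. With voom on inferred reads 0 members were called and again 3 tests lay under it, beside 7.72%, 8.90%, 15.2% and 2.50% of all genes. A missing call does not show that a gene stayed the same, so the interval of each difference is given.

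Aqp5 had the largest late-polysome difference of the 5 between genotypes. Its late libraries averaged 365.8 ± 20.8 scaled TPM in cKO and 270.6 ± 28.3 in WT (SD, n = 2 each). The log2 difference was 0.44 (SE 0.12, 95% interval 0.15 to 0.72) and failed limma's test after adjustment (adjusted p = 0.377). In early libraries its means were 248.6 ± 15.7 in cKO and 246.2 ± 27.6 in WT, a difference of 0.02 (95% interval -0.27 to 0.30). On lysate means the difference was 0.23 (SE 0.064, adjusted p = 0.37 by limma). The interaction was 0.42 (SE 0.17, 95% interval 0.02 to 0.82, adjusted p = 1.0 by limma). It was the 1 member whose late-minus-early change was larger in both cKO lysates than in both WT lysates, as in 14.9% of tested genes.

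Aqp3 differed between genotypes by -0.21 in early (95% interval -0.69 to 0.28) and 0.25 in late polysomes (-0.23 to 0.73), and by 0.02 on lysate means (-0.20 to 0.24). Its interaction of 0.46 had an interval of -0.23 to 1.14, and ranged from 0.19 without WT early replicate 1 to 0.73 without WT early replicate 2. For Aqp1 the differences were 0.03 in early (-0.31 to 0.38) and 0.19 in late polysomes (-0.16 to 0.53), and for Aqp4 -0.04 (-0.36 to 0.28) and 0.24 (-0.08 to 0.56). Aqp11 was at 33.8 ± 0.11 scaled TPM in cKO early and 28.3 ± 4.83 in WT early libraries, a difference of 0.26 (-0.04 to 0.55), and at 0.16 (-0.14 to 0.45) in late polysomes. Single libraries moved some of these values: the early Aqp11 difference was 0.089 without WT early replicate 1, and without cKO late replicate 2 the late difference was 0.10 for Aqp3 and 0.091 for Aqp1. Adjusted p-values of these 4 members by limma were 0.462 or more.

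All 5 members had both cKO late libraries above both WT late libraries, as had 20.5% of tested genes. The 5 genes were measured in the same 4 libraries and are not independent of each other. In TPM as deposited it held for 4 of 5, since the Aqp3 values of 561.6 and 626.2 in WT overlapped those of 607.8 and 775.1 in cKO. In early libraries it held for 1 member, Aqp11, and for 19.6% of tested genes. Summed markers of other cells were compared in the same late libraries. There limma called 0 genes of the 11 marker lists, beside 0.0124% of all genes. At an unadjusted p under 0.05 by limma were 8 genes of these lists, beside 9.36% of all genes. They were 2 of 7 tested respiratory and 2 of 3 red cell markers. The rest were 1 each of 8 endothelial, 7 ensheathing glia, 5 tested microvillous and 5 immature neuron markers. None was a sustentacular, Bowman gland, horizontal basal, fibroblast or mature neuron marker. Sums in both cKO libraries lay above both WT libraries for 5 of the lists and below them for 2, and those of the other 4 overlapped. A sum is carried by the most abundant genes of its list. The microvillous marker Coch, for example, averaged 224.2 scaled TPM in late libraries, and the respiratory markers Cyp2f2 and Reg3g 1301 and 966. The 10 sustentacular (supporting) cell markers summed to 12430 and 12790 (WT) and 14140 and 14200 (cKO) scaled TPM. The 10 Bowman gland markers overlapped, with 22350 and 16380 (WT) and 25220 and 20730 (cKO), and so did the 6 fibroblast markers, with 17850 and 13430 (WT) and 17590 and 15320 (cKO). The 8 endothelial markers summed to 169.5 and 168.1 (WT) and 195.6 and 185.4 (cKO). The 3 red cell markers in the table summed to 67.0 and 66.1 (WT) and 88.5 and 100.1 (cKO), the 8 respiratory markers to 2143 and 2252 (WT) and 2747 and 2572 (cKO), and the 6 microvillous cell markers to 298.9 and 301.5 (WT) and 336.6 and 352.6 (cKO). Lower in cKO were the sums of 7 ensheathing glia markers, at 812.8 and 667.5 (WT) and 590.4 and 582.3 (cKO), and of 5 immature neuron markers, at 2020 and 1866 (WT) and 1668 and 1696 (cKO). Their part in the aquaporin values was not tested.

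**Figure D4:**
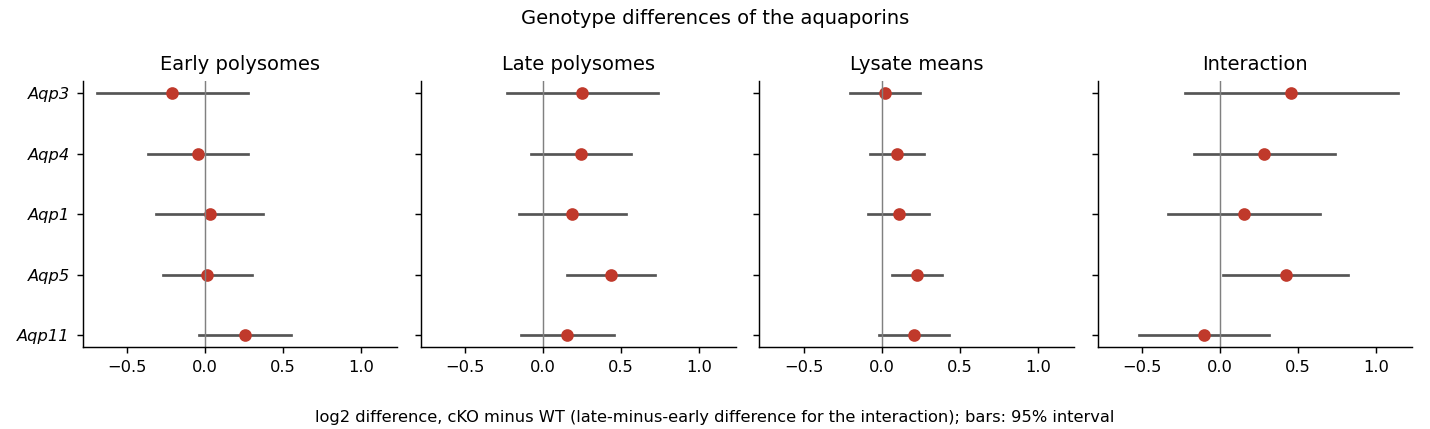
Differences between cKO and WT on the log2 scale (horizontal axis) with 95% intervals from limma for the 5 aquaporins in early polysomes, late polysomes, lysate means and the interaction (difference of late-minus-early differences). The Aqp5 intervals lie above 0 in all panels but the early one, and no difference passed adjustment over all genes.

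Without the WT early library whose tag conflicts with its title, the early difference was -0.14 for Aqp1, -0.48 for Aqp3, -0.14 for Aqp4, -0.10 for Aqp5 and 0.43 for Aqp11, with adjusted p-values by limma of 0.754 to 0.898. The interaction was then 0.33, 0.73, 0.38, 0.53 and -0.27 in the same order (adjusted p = 0.99 for each by limma). At an unadjusted p under 0.05 by limma were then Aqp11 in early polysomes, beside 6.31% of all genes, and Aqp3 and Aqp5 in the interaction, beside 3.06%; Aqp5 was also under it there with all libraries. Lysate means without that lysate differed by 0.03, -0.08, 0.07, 0.22 and 0.29, and the interval of Aqp5 then reached from -0.06 to 0.50, across 0. The remaining WT early library is then assumed to vary like the other groups. Late minus early without that lysate averaged 0.77 ± 0.32, 1.76 ± 0.60, 0.83 ± 0.36, 0.34 ± 0.39 and -0.61 ± 0.17 (SD, n = 3) in the same order, with the directions of the means as before.

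The other aquaporin genes of the table were near or at 0. Mip and Aqp6 were listed at 0 in all 8 libraries, Aqp7 was above 0 in 1 library, and Aqp2 and Aqp9 reached at most 1.05 and 0.912 TPM, on up to 4 and 12 inferred reads. None passed the filter. Of 7 other family genes looked up by symbol, 5 were found. Aqp8 and Aqp12 were not found and so were not analysed.

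Genes that work with the aquaporins were taken from lists and tested late against early by limma. These tests had no lysate term, so they did not use the pairing of early and late libraries. They are set beside the background of 34.3% of tested genes higher and 34.6% lower in late polysomes, with a median over all genes of -0.01. Neither these lists nor the later ones were matched for coding length, on which position on the gradient depends. The part of length in the list counts was not tested. Of 10 genes of the dystrophin complex and of channels found with Aqp4, 8 were higher in late polysomes and 0 lower, with a median of 0.44. Dag1, which encodes dystroglycan, rose by 0.97 (SE 0.099, adjusted p = 5.7e-05), Utrn, the dystrophin relative utrophin, by 0.49 (adjusted p = 0.00259) and Dtna, dystrobrevin alpha, by 0.39 (adjusted p = 0.000636). Sntb1 was at 0.23 (adjusted p = 0.0658).

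Of 15 genes of epithelial ion and fluid transport, 12 were higher in late polysomes and 0 lower, with a median of 0.50. Atp1b1, a subunit of the sodium pump, rose by 0.25 (SE 0.085, adjusted p = 0.0266), from a mean of 1012 to 1205 scaled TPM. The cotransporter Slc12a2, which loads chloride into secretory cells, rose by 0.61 (adjusted p = 0.00217), and the scaffold gene Slc9a3r1 was at 0.19 (adjusted p = 0.0654). Of 10 genes of glycerol and lipid droplet metabolism, to which the glycerol channel Aqp3 is linked, 4 were higher and 3 lower, with a median of 0.09. Gpd1l rose by 0.52 (adjusted p = 0.000397), while the phosphatase gene Pgp fell by 0.64 (adjusted p = 0.000144) and the monoglyceride lipase Mgll by 0.38 (adjusted p = 0.000882). Pnpla2, a triglyceride lipase, was at 0.08 (adjusted p = 0.503). In the genotype comparisons and the interaction 0 genes of these lists were called by limma. At an unadjusted p under 0.05 there were 0, 1, 0 and 2 of the dystrophin list in early polysomes, late polysomes, lysate means and the interaction, 0, 2, 1 and 0 of the fluid transport list and 2, 3, 5 and 1 of the glycerol list, beside 6.65%, 9.36%, 11.3% and 2.85% of all genes.

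Markers of cell types moved with the fractions as well, in differing directions. Each list stands beside 34.3% of all tested genes higher and 34.6% lower in late polysomes. Among sustentacular cell markers 7 of 10 were higher and 1 lower in late polysomes. Their median change rose from WT 1 (0.67) through cKO 1 (0.76) and WT 2 (1.03) to cKO 2 (1.199). Aqp1, Aqp3 and Aqp4 ranked the lysates alike, but so did the endothelial medians (0.11, 0.26, 0.34 and 0.47). The SD over all tested genes had the same order (0.62, 0.67, 0.78 and 0.90), so this order is not particular to sustentacular cells. Other lists, such as Bowman gland and fibroblast markers, ranked the lysates differently. The summed level of the sustentacular markers was 7669 to 9226 scaled TPM in early and 12430 to 14200 in late libraries. The cytochrome P450 gene Cyp2g1 rose by 1.67 (SE 0.12, adjusted p = 2.1e-05), beside 1.80 for Aqp3, and Cbr2 fell by 0.51 (adjusted p = 0.00709). Bowman gland markers were mixed, with 6 of 10 higher and 2 lower: Bpifb9b rose by 1.18 (adjusted p = 0.00614), and the lipocalin gene Obp2a fell by 0.86 (adjusted p = 0.000376), with Aqp5 at 0.35. Horizontal basal cell markers were higher in 7 of 8 and lower in 0, with Krt5 at 0.98 (adjusted p = 0.000698). Endothelial markers were higher in 4 of 8 and lower in 1, with a median of 0.26 against 0.81 for Aqp1; Pecam1 rose by 0.21 (adjusted p = 0.0349). Of the markers found in the table in these 4 lists, none was at 0 in all libraries. Lists of other cell types moved too. Fibroblast markers were higher in late polysomes in 4 of 6 and lower in 0 (median 0.57). Ensheathing glia markers were higher in 4 of 7 and lower in 2 (median 0.65). Of 7 tested respiratory markers 1 was higher and 4 lower (median -0.45). Of 5 immature neuron markers 2 were higher and 2 lower (median -0.10). Red cell markers were higher in 0 of 3 and lower in 1 (median 0.09). The part of cell type in the aquaporin values was not tested.

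**Figure D5:**
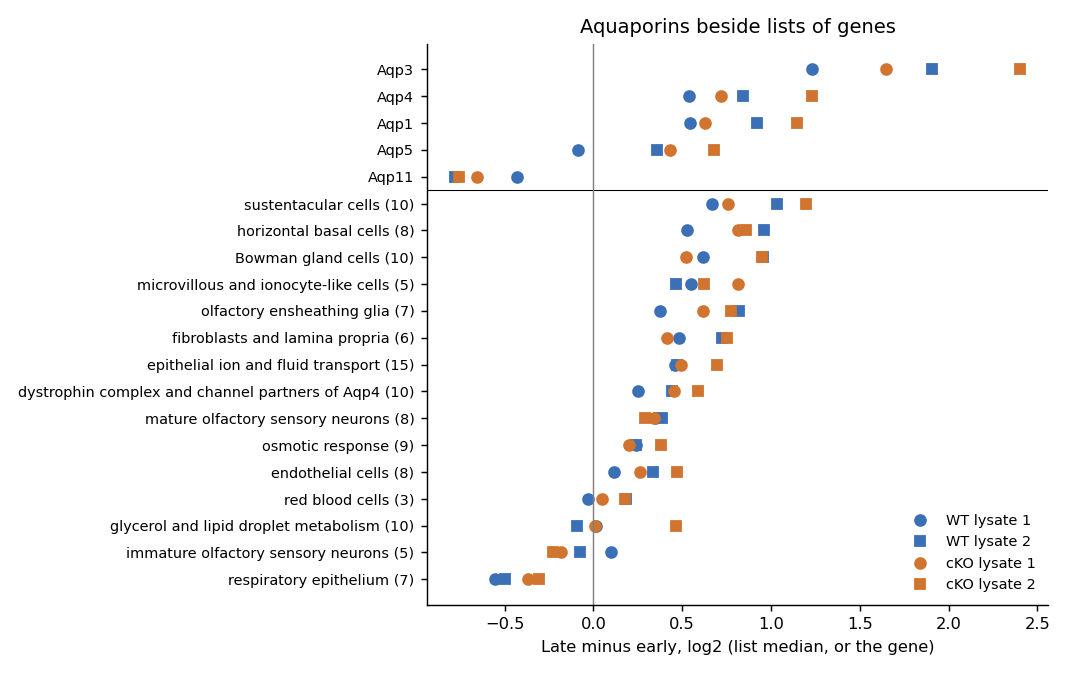
Late minus early (horizontal axis, log2) in each of 4 lysates for the 5 aquaporins (top) and as medians of the gene lists (number of tested genes in brackets). Aqp3 lies to the right of the sustentacular median in the same lysate throughout. Aqp1 and Aqp4 lie near this and other list medians, such as those of horizontal basal and Bowman gland markers. Aqp11 and the respiratory epithelium list lie below 0 in every lysate.

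Genes with the pattern most like each member were ranked by Pearson's r of log2 values over the 8 libraries, among 12124 genes with a mean of at least 5 scaled TPM. The difference between fractions dominates this measure, and all points share depth and library. For Aqp3 the closest were Erbb2 (r = 0.999), Psmd3 (0.999) and Puf60 (0.998). For Aqp1 they were Arhgef1, Fstl1 and Grn (0.996 to 0.997), for Aqp4 Clptm1, Cdc42bpg and Fgfr3 (0.997 to 0.998), for Aqp5 Dhrs4, Hp and Chpf2 (0.973 to 0.989) and for Aqp11 Suds3, Rassf3 and Slc35e1 (0.992 to 0.993). With the mean of each fraction subtracted, the closest were Erbb2 to Aqp3 (0.991), Tuba1b to Aqp1 (0.991), Grb14 to Aqp4 (0.994), Slc9a2 to Aqp5 (0.985) and Lrrc75a to Aqp11 (0.989). Among the members themselves r on these subtracted values was 0.911 for Aqp1 and Aqp3, 0.929 for Aqp1 and Aqp4 and 0.913 for Aqp3 and Aqp4. It was 0.707 to 0.834 for Aqp5 with these 3, and -0.49 to 0.13 for Aqp11 with the other 4. These values have no reference, and the spread over all genes described above, which is wider in lysates 2, enters each of them.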

How the data were processed

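The authors deposited 1 table of TPM values for 8 libraries. Per the submitters' processing notes the build was mm10 and FastQC, cutadapt, STAR and DESeq2 were used, with no role given; the counter and annotation are not given in the sources used here. The Cre line and some genes of the lists are not reported here by name. Groups and replicate numbers came from sample titles, and early and late libraries were paired by the lysate in the library name. Late minus early per lysate used this pairing, while the late-against-early p-values by limma did not. Columns were divided by median-ratio factors of 0.94 to 1.07. Genes averaging 1 TPM or more as deposited were fitted as log2(scaled TPM + 1) with limma 3.58.1 (R 4.3.3), all 4 groups together, with a mean-variance trend. P-values were two-sided and Benjamini-Hochberg adjusted over all genes, with a threshold of 0.05. Fold changes on this scale understate the change of low genes.

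TPM keeps no depth. Within a gene, 1 common step divided the values into whole numbers for 100% of 19783 genes above 0 in at least 2 libraries (tolerance 0.001), and these whole numbers are called inferred reads; intervals cover the spread between libraries only. The test and the read inference were tested on simulated data. No protein table was used, so lengths are GENCODE vM21 coding lengths divided by codon size, found for 91.2% of tested genes, and the design's protein comparison used these. Members and lists were chosen with earlier results of these data known. Named list genes are up to 4 with the highest mean scaled TPM per list, and alike genes the 3 with the highest r.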

Additional observations from a re-analysis of the deposited data

How the results depend on the processing

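The 5 members were called in 0 of the 330 combinations of member, genotype comparison and alternative, and the lowest adjusted p by limma was 0.0859, for Aqp5 on lysate means with the replicate number as a replicate block (0.23). No label says that WT and cKO lysates of a number share a batch or day. Deviations from group means had correlations of 0.332 (early) and 0.143 (late) between genotypes of a number, and of 0.086 (WT) and 0.05 (cKO) between fractions of one lysate. The replicate block on lysates left the interaction call count of the members at 0 and that over all genes at 1. Over all genes the number block called 85 and voom 51 on lysate means, where the fit without them called 1; voom called 12 in early and 15 in late polysomes, in place of 7 and 2. Directions of small genotype differences turned in 18 combinations. With TPM as deposited, Aqp1 (-0.025) and Aqp5 (-0.040) turned in early polysomes and Aqp3 (-0.027) on lysate means; with quantile normalization Aqp5 in early polysomes (-0.031) and Aqp3 on lysate means (-0.016). Leaving out libraries gave, in early polysomes, -0.14 to 0.20 for Aqp1, -0.48 to 0.063 for Aqp3, -0.23 to 0.14 for Aqp4 and -0.097 to 0.13 for Aqp5, on lysate means -0.080 to 0.12 for Aqp3, and in the interaction -0.018 to 0.33 for Aqp1 and -0.27 to 0.066 for Aqp11. A library left alone in its group is assumed to vary like the others. The cause was not tested. The Aqp3 interaction ranged from 0.19 to 0.73 over the libraries left out. Late minus early of each member kept its direction and stayed within 1 SD of its main value under each alternative run (for Aqp5, whose SD is near its mean, 0.24 to 0.58), as did its distance from genes of like length with windows of 5% and 20%. Aqp11, on 74 to 204 inferred reads, is the member most limited by depth.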

Other observations

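A list of genes that respond to osmotic stress was read alongside the water channels. Of its 9 tested genes 6 were higher and 1 lower in late polysomes by limma, with a median of 0.27. Over all tested genes 34.3% were higher and 34.6% lower, and the list was not matched for coding length. The taurine transporter Slc6a6, which takes up an osmolyte, rose by 0.73 (SE 0.087, adjusted p = 0.000121), from a mean of 143.7 to 239.6 scaled TPM. The kinase gene Wnk1, which senses chloride and cell volume, rose by 0.50 (adjusted p = 0.000215), and Stk39, a kinase that WNK kinases act on, by 0.18 (adjusted p = 0.0397). The volume-regulated channel subunit Lrrc8d was at -0.04 (adjusted p = 0.536). The osmotic transcription factor gene Nfat5, named after its value was seen, was the member that fell, by 0.40 (adjusted p = 0.000982). Between genotypes 0 of the 9 were called by limma in early polysomes, late polysomes, lysate means or the interaction. The shares of all genes called were 0.0435%, 0.0124%, 0.00621% and 0.00621% in that order. At an unadjusted p under 0.05 by limma there were also 0 of the 9 in each. Beside these stood 6.65%, 9.36%, 11.3% and 2.85% of all genes.

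Microvillous and ionocyte-like cells, a rare epithelial type, were read from 6 markers, of which 5 were tested. In late polysomes 3 were higher and 1 lower by limma, with a median of 0.70, beside 34.3% higher and 34.6% lower of all tested genes. Coch, which encodes a secreted protein, rose by 1.29 (SE 0.12, adjusted p = 4.0e-05) and Foxi1, an ionocyte transcription factor gene, by 1.00 (adjusted p = 6.7e-05), while the tuft-cell factor gene Pou2f3 fell by 0.60 (adjusted p = 0.00177). Ascl3 was at 0.18 (adjusted p = 0.0736).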
